A study of Mus musculus with 24 samples.

Results

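The fibrillar collagens described here are 7 genes, Col1a1, Col1a2, Col3a1, Col5a1, Col5a2, Col5a3 and Col11a1, which encode chains of collagen types I, III, V and XI. They were chosen by gene symbol, with earlier results of these data known, and are 7 of the 49568 gene symbols in the deposited count table. The cells were NIH/3T3, an established line of mouse embryonic fibroblasts grown in medium with 10% bovine calf serum and exposed for 24 h to halofuginone or to the same volume of PBS (vehicle). Halofuginone inhibits Eprs, the synthetase that loads glutamate and proline onto their tRNAs, by occupying its proline site. Sequenced RNA came either from intact cells (total RNA) or from polysome gradients, whose fractions were joined into 3 pools. The ribosome-free pool holds untranslated mRNA and ribosomal subunits, the light pool starts at the monosome, and the heavy pool carries mRNAs with more than 5 ribosomes. Every combination of 2 treatments and 4 kinds of RNA had 3 libraries, 24 in all, which the study describes as biological triplicates.

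Column headers split the libraries into 2 sets that stand apart from each other. Set A holds 8 libraries, 1 per group, with a date-like header tag. Its halofuginone headers name 50 nM, where the sample labels give 100 nM for every sample, and its pools joined fractions 1 to 2, 3 to 6 and 7 to 11. Set B holds 16 libraries, with tags 2 and 3 in total RNA and 2 and 4 in the pools, whose pools joined fractions 1 to 5, 6 to 13 and 14 to 21. Fraction 1 was taken as the top of each gradient. The dose in set A was not settled, and dose and set cannot be told apart. No tag is tied to a culture of its own, and p-values therefore reflect how much these libraries vary, part of which could be technical. Depth lay between 10.3 and 25.0 megacounts assigned to genes. Mitochondrially encoded RNAs took 8.69% to 34.9% of counts in ribosome-free pools and 0.276% to 0.746% in heavy pools. All 7 of 7 fibroblast markers reached 5 CPM (counts per megacount of the library) in vehicle total RNA, against 0 of 5 epithelial, 0 of 6 leukocyte and 0 of 5 endothelial markers. Of 5 adipocyte markers only Fabp4 did, and of 5 chondrocyte markers only Sox9. The summed level of the adipocyte markers was 9.74 to 13.3 CPM in vehicle and 0.908 to 5.44 CPM with halofuginone, and that of the chondrocyte markers 123 to 140 and 81.0 to 111 CPM, and the part of such cells in the results was not tested. In a bulk culture, fewer cells expressing a gene and less RNA per cell cannot be told apart.

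Fibrillar collagens give connective tissue its tensile strength. Their chains are long repeats of glycine followed by 2 residues that are often proline or hydroxyproline, and 3 chains wind into a triple helix in the endoplasmic reticulum. Type I collagen is mostly built from 2 α1 chains (Col1a1) and 1 α2 chain (Col1a2), and type III from 3 Col3a1 chains. Types V and XI are minor collagens on which type I fibrils start to assemble and which limit their width. Their chains come from Col5a1, Col5a2, Col5a3 and Col11a1, and Col5a2 usually joins trimers with Col5a1. After export, the ends of procollagens I and III are trimmed by proteases and the fibrils are crosslinked by lysyl oxidases.

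The coding sequences of all 7 members were rich in proline codons (CCN), the codons read by the tRNAs that Eprs charges. The share of proline codons in the longest complete coding sequence was 19.0% in Col1a1, 16.2% in Col1a2, 19.5% in Col3a1, 17.9% in Col5a1, 17.6% in Col5a2, 15.9% in Col5a3 and 15.5% in Col11a1. The median over 11331 genes tested in total RNA was 5.5%, and each member ranked above at least 99.0% of them. Col3a1 ranked 27 and Col11a1 ranked 111 from the top. The choice of proline codon differed between chains. CCC made up 37.0% of the proline codons of Col1a1, 24.2% of those of Col1a2 and 9.47% of those of Col5a2. The stretch of 30 codons with the most proline codons is shown for both type I chains, the most abundant members, and for Col5a2, the member whose total RNA was higher with halofuginone in set B. The sequences come from GENCODE M21 transcripts on GRCm38, read 5′ to 3′ on the coding strand, with proline codons in capitals. The Col5a2 stretch is joined from 2 exons, so its coordinates span an intron.
Col1a1, chr11:94938504-94938593 (+): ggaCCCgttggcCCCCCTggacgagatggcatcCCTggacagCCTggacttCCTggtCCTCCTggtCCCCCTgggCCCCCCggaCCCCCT
Col1a2, chr6:4510693-4510782 (+): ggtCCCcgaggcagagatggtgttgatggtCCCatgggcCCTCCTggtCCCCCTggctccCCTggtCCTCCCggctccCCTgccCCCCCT
Col5a2, chr1:45380247-45382160 (-): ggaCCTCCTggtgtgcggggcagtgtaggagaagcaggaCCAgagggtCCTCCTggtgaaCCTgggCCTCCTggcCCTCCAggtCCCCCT
The Col1a1 stretch holds 14 proline codons in 30, and the other two hold 12 each. Both type I stretches lie within a single exon.

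The members lie on 6 chromosomes, in GRCm38 and GENCODE M21. Col1a1 (ENSMUSG00000001506.10) lies at chr11:94936224-94953042 on the + strand, Col1a2 at chr6:4504814-4541544 (+), Col5a1 at chr2:27886425-28039514 (+), Col5a3 at chr9:20770050-20815067 (-) and Col11a1 at chr3:114030540-114220718 (+). Col3a1, at chr1:45311538-45349706 (+), and Col5a2, at chr1:45374321-45503282 (-), are neighbours that point towards each other with 24.6 kb between their ends. RefSeq promoter sequences of GRCm38.p6 were matched for 5 of the 7 members. Those of Col3a1 and Col5a1 are shown because both genes fell in set B total RNA, by the second largest and the smallest amount, and because their base composition differs. Each run gives the 250 bases before the start of transcription, on the strand of the gene, with matches on either strand in capitals to the CCAAT box (CCAAT), to a GC box of the kind bound by Sp1 (GGGCGG) and to a TATA box (TATAAA). Matches to the first 2 can share bases, which happened in neither run.
Col3a1, chr1:45311288-45311537 (+): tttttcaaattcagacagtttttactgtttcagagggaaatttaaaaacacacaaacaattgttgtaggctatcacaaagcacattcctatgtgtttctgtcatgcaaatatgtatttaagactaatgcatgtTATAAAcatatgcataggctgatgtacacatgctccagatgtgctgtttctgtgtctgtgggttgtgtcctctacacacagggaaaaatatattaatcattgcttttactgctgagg
Col5a1, chr2:27886175-27886424 (+): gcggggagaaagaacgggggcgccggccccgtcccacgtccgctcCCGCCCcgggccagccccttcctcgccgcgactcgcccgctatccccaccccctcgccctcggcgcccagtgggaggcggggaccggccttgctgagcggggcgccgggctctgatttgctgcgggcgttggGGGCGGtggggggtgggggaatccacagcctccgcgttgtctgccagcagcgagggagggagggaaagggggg
G and C made up 35.2% of the Col3a1 run and 76.4% of the Col5a1 run, against a median of 52.4% over 32851 promoters of the same length. Col3a1 held 1 TATAAA and neither of the others, and Col5a1 held 2 matches to GGGCGG and neither of the others. CCAAT occurred in 33.9% of all promoters, GGGCGG in 32.7% and TATAAA in 12.4%. A match is a description of these letters only.

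In vehicle cells the 2 chains of type I collagen made up most of the family. The 7 members together took 0.651% ± 0.0716 (SD, n = 3) of all counts in vehicle total RNA, and Col1a1 and Col1a2 made up 89.2% of that. Levels are given in CPM, scaled with TMM factors within each kind of RNA, and levels of different genes are compared per kilobase of annotated exon. Shares of counts and count ratios of 2 chains are not corrected for exon length. Per kilobase, total RNA of vehicle cells held Col1a2 at 346 ± 34.6 CPM (SD, n = 3 for each gene), Col1a1 at 213 ± 29.4, Col5a1 at 37.7 ± 3.68, Col5a2 at 28.3 ± 6.06, Col3a1 at 7.28 ± 2.23, Col5a3 at 1.29 ± 0.441 and Col11a1 at 1.27 ± 0.261. Col5a3 and Col11a1 did not differ beyond their spread. The lowest Col5a1 library stood at 35.3 and the highest Col5a2 library at 35.2 CPM per kilobase, so these neighbours were barely separate. The length of Col1a2 (12.4 kb of exon, against 6.56 kb for Col1a1) includes longer annotated transcripts, so its level per kilobase depends on that annotation.

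In total RNA the question is which collagen mRNAs became more or less abundant in treated cells. For 6 of the 7 members, every halofuginone library lay below every vehicle library, against 11.6% of 13020 genes tested. Col5a2 was the exception. It follows that the same 6 were lower in all 3 same-tag pairs, where 22.4% of genes were, so that count adds no separate support. Tags were not shown to pair libraries of total RNA. The plot of levels by library shows all 24 values of each gene.

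**Figure D1:**
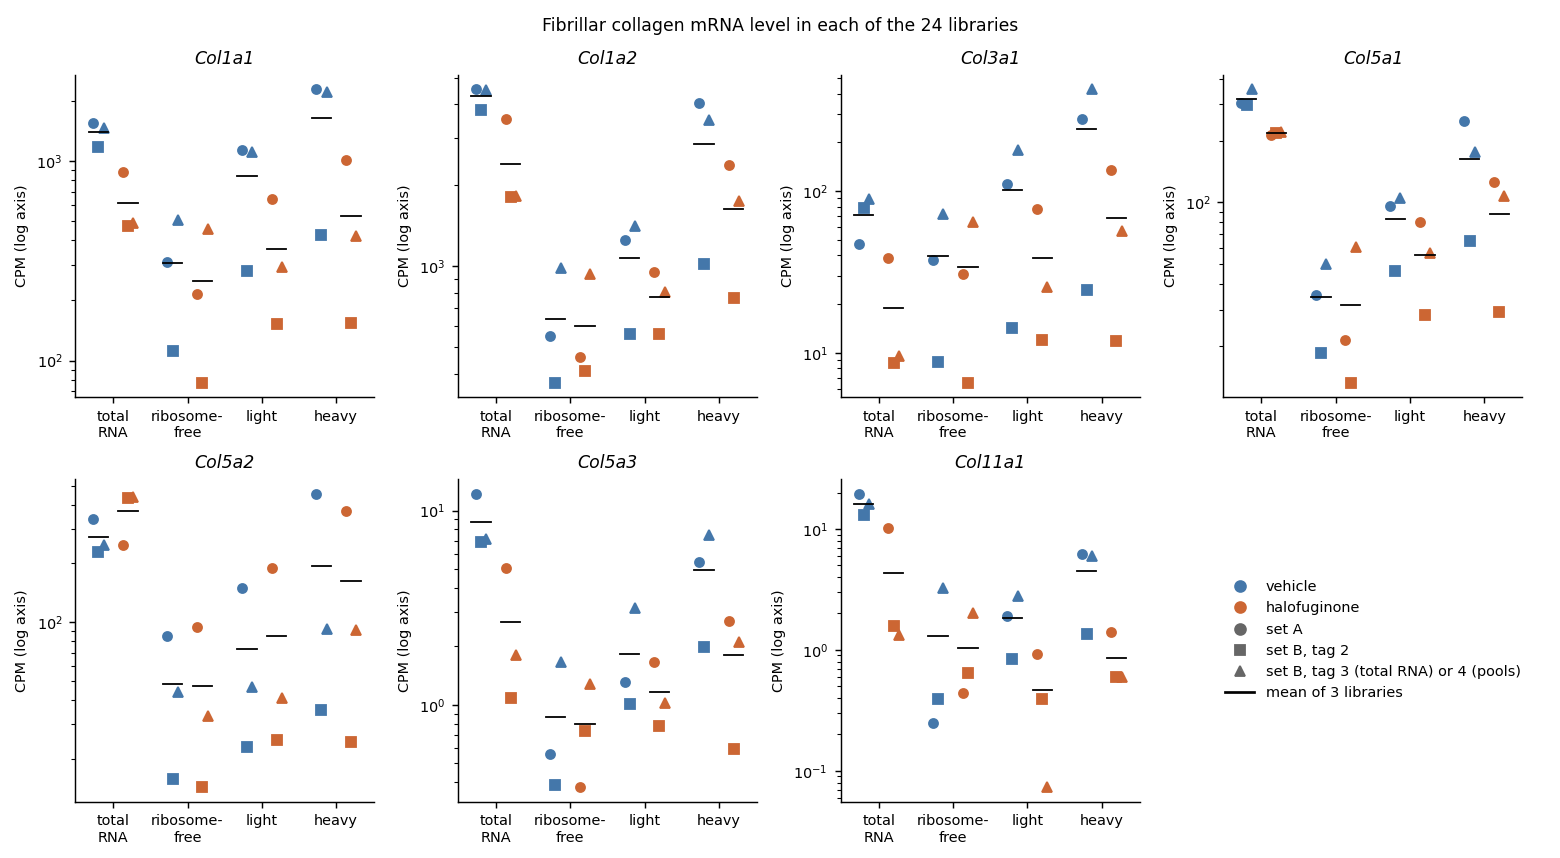
Level of each member in CPM (log axis) in total RNA and in the ribosome-free, light and heavy pools; points are single libraries, shaped by set and tag, and bars are means of 3 libraries. In total RNA the halofuginone points of Col1a1 (473 to 882 CPM) lie below its vehicle points (1183 to 1554 CPM), whereas those of Col5a2 (248 to 437 CPM) overlap its vehicle points (228 to 337 CPM).

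Both type I chains were lower with halofuginone in all libraries of total RNA. In the order set A, tag 2, tag 3, Col1a1 stood at 1554, 1183 and 1463 CPM in vehicle libraries and 882, 473 and 490 CPM with halofuginone. Col1a2 stood at 4557, 3799 and 4530 CPM in vehicle libraries and 3537, 1809 and 1833 CPM with halofuginone. The groups did not overlap for either gene, and the set A halofuginone library was the highest of its trio in both. The log2 fold change was -1.19 ± 0.29 (SE) for Col1a1 and -0.84 ± 0.30 for Col1a2. Neither passed edgeR's quasi-likelihood test over all genes, where both had a Benjamini-Hochberg adjusted p of 0.267.

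Col3a1, the chain of type III collagen, showed the widest gap between the sets among the members. It stood at 46.9, 78.3 and 89.1 CPM in vehicle libraries and 38.8, 8.66 and 9.49 CPM with halofuginone. The set A pair differed little, with a halofuginone to vehicle ratio of 0.826, while the set B pairs gave 0.111 and 0.106. The log2 fold change over all libraries was -1.91 ± 0.65 (SE), with an adjusted p of 0.267 in edgeR.

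The chains of type V collagen differed from one another in total RNA. Col5a1 stood at 305, 300 and 356 CPM in vehicle libraries and 214, 219 and 221 CPM with halofuginone, with no overlap. Its ratios were the most alike across sets, at 0.701 in set A and 0.731 and 0.620 in set B. Col5a2 stood at 337, 228 and 249 CPM in vehicle libraries and 248, 430 and 437 CPM with halofuginone. In set A the halofuginone library was the lower of the 2, and in set B both halofuginone libraries were above every vehicle library. The log2 fold change was -0.56 ± 0.15 (SE, edgeR adjusted p 0.267) for Col5a1 and 0.45 ± 0.28 (adjusted p 0.385) for Col5a2. Whether the Col5a2 response differed between the sets was not tested, as set A has 1 library per treatment.

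The least abundant members were also lower in every halofuginone library. Col5a3, a type V chain of restricted expression, stood at 12.2, 6.93 and 7.17 CPM in vehicle libraries and 5.08, 1.09 and 1.82 CPM with halofuginone. Col11a1, a type XI chain best known from cartilage, stood at 19.7, 13.01 and 16.0 CPM in vehicle libraries and 10.1, 1.59 and 1.32 CPM with halofuginone. The set B halofuginone values of Col11a1 rest on 35 and 32 counts and those of Col5a3 on 24 and 44. Their log2 fold changes were -1.72 ± 0.61 (SE) for Col5a3 and -1.90 ± 0.81 for Col11a1, with edgeR adjusted p-values of 0.267 and 0.288.

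Over all 6 libraries of total RNA, edgeR called 0 of the 7 members and 0.0% of 13020 genes (adjusted p below 0.05), with 5 members and 2292 genes at an unadjusted p under 0.05. DESeq2 called 515 genes and 2 members, both lower. These were Col1a1 (adjusted p 0.0146 in DESeq2) and Col5a1 (0.0123), against 1.68% of genes called lower by that tool. The median log2 fold change was -1.19 over the 7 members and 0.02 over all genes tested. In the 4 libraries of set B alone, edgeR called all 7 members. Col1a1, Col1a2, Col3a1, Col5a1, Col5a3 and Col11a1 fell (6 of 7), against 36.9% of 13334 genes called lower, and Col5a2 rose, against 33.1% called higher. The log2 fold changes in set B were -1.503 ± 0.11 (SE) for Col1a1, -1.24 ± 0.10 for Col1a2, -3.25 ± 0.11 for Col3a1, -0.62 ± 0.09 for Col5a1, -2.31 ± 0.24 for Col5a3, -3.36 ± 0.19 for Col11a1 and 0.82 ± 0.08 for Col5a2. Adjusted p-values in edgeR ran from 3.454e-07 for Col3a1 to 0.000584 for Col5a1. Leaving out only the set A halofuginone library also gave 7 called members, with 61.3% of 13455 genes called, and leaving out any other single library gave 0. The 2 set B halofuginone libraries of total RNA were the most alike of any group, with a mean chi-square of 3.12 per gene between their counts against 21.1 for the next most alike pair, so they differed by more than sampling noise.

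**Figure D2:**
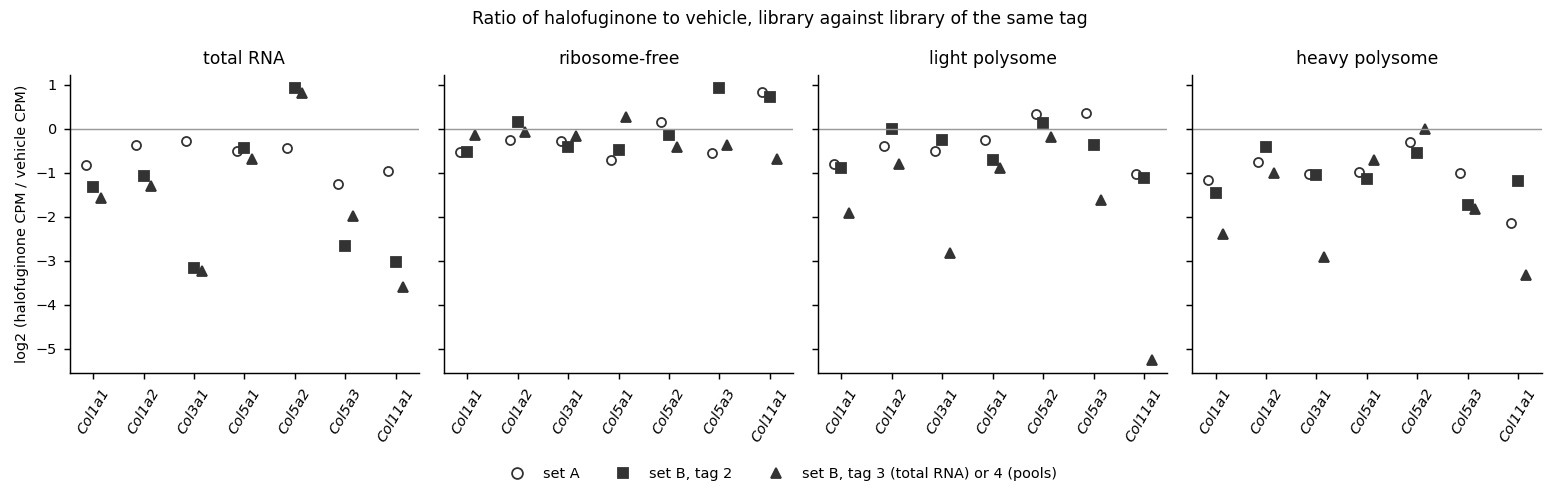
Log2 ratio of halofuginone CPM to vehicle CPM for each member (x axis) between libraries of the same kind and header tag; open circles are set A, filled symbols set B. In total RNA the filled symbols of Col5a2 lie above 0 (ratios 1.89 and 1.75) while all other members lie below 0; the lowest Col11a1 point, in light polysomes, rests on 1 count against 40.

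The comparison within the polysome pools asks whether the mRNAs on few or many ribosomes changed as the cell's total did. No member separated the treatments without overlap in any pool (0 of 7 in each), where 0.853% of genes tested did so in ribosome-free, 5.97% in light and 7.06% in heavy pools. Among vehicle libraries, every member varied more from library to library in each pool than in total RNA. The highest vehicle library of Col1a1 was 5.39 times the lowest in heavy polysomes and 1.31 times in total RNA, and for Col3a1 these values were 17.4 and 1.90. With halofuginone this depended on the member. The highest halofuginone library of Col1a1 was 6.615 times the lowest in heavy polysomes and 1.86 times in total RNA. For Col11a1 these values were 2.36 and 7.66. Libraries of the same header tag deviated together in the pools, so values are given tag by tag.

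In heavy polysomes all 7 members were lower with halofuginone under all 3 tags, where 24.7% of 12222 genes tested were lower under all 3. In the order set A, tag 2, tag 4, Col1a1 stood at 2292, 425 and 2213 CPM in vehicle libraries and 1016, 154 and 423 CPM with halofuginone. Col1a2 stood at 4058, 1020 and 3510 CPM in vehicle libraries and 2379, 763 and 1756 CPM with halofuginone. Col3a1 stood at 277, 24.5 and 425 CPM in vehicle libraries and 136, 11.8 and 56.6 CPM with halofuginone. In vehicle the tag 2 library was the lowest of its trio for all 3 genes, and with halofuginone it was again.

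The type V chains gave halofuginone to vehicle ratios between 0.280 and 0.994 in heavy polysomes. Col5a1 stood at 248, 64.8 and 175 CPM in vehicle libraries and 126, 29.3 and 107 CPM with halofuginone. Col5a2 stood at 455, 35.5 and 92.2 CPM in vehicle libraries and 372, 24.3 and 91.7 CPM with halofuginone, so its tag 4 pair was nearly equal (ratio 0.994). Set A held the highest Col5a2 library of each treatment in every pool, beside the different fractions that set A pooled. Col5a3 gave ratios of 0.495, 0.300 and 0.280 and Col11a1 gave 0.225, 0.441 and 0.0997, the last from 9 counts against 79.

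The fit over the 6 heavy libraries gave log2 fold changes of -1.63 ± 0.78 (SE) for Col1a1, -0.81 ± 0.56 for Col1a2, -1.83 ± 1.05 for Col3a1, -0.90 ± 0.62 for Col5a1, -0.26 ± 1.08 for Col5a2, -1.46 ± 0.67 for Col5a3 and -2.36 ± 0.69 for Col11a1. In edgeR 0 of 7 members and 0.0% of 12222 genes were called, with 1 member and 754 genes at an unadjusted p under 0.05. DESeq2 called 0 members and 78 genes. With the header tag as a replicate block 0 members and 2 genes were called, with 6 members and 1956 genes at an unadjusted p under 0.05. The block gave Col1a1 a log2 fold change of -1.67 ± 0.28 (SE) and an edgeR adjusted p of 0.25. The median log2 fold change was -1.46 over the members and 0.02 over all genes. The sign for Col5a2 depended on single libraries, with 1.35 when the set A vehicle library was left out and -1.73 when the set A halofuginone library was.

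In light polysomes 5 of the 7 members were lower under all 3 tags, where 23.5% of 12632 genes were. Col1a1 stood at 1130, 282 and 1111 CPM in vehicle libraries and 645, 153 and 295 CPM with halofuginone. Col3a1 stood at 111, 14.3 and 180 CPM in vehicle libraries and 77.9, 11.97 and 25.6 CPM with halofuginone. Col1a2 was nearly level under tag 2, at 559.5 against 558.9 CPM. The exceptions were Col5a2, with ratios of 1.26, 1.09 and 0.880, and Col5a3, with 1.28, 0.774 and 0.327. In edgeR 0 of 7 members and 0.0% of genes were called, with 1 member and 540 genes at an unadjusted p under 0.05, and DESeq2 called 0 members and 39 genes.

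In the ribosome-free pool the treatments overlapped for every member. Col1a1 stood at 312, 112 and 504 CPM in vehicle libraries and 215, 77.4 and 459 CPM with halofuginone. Col1a2 stood at 551, 370 and 989 CPM in vehicle libraries and 460, 409 and 935 CPM with halofuginone. Only Col1a1 and Col3a1 were lower under all 3 tags, where 13.5% of 11960 genes were. Col5a3 and Col11a1 had between 4 and 39 counts there and were not tested. For the other 5 the log2 fold changes lay between -0.31 ± 0.76 (SE, Col1a1) and -0.04 ± 0.81 (Col5a2). In edgeR 0 of 5 members and 0.0% of genes were called, with 0 members and 30 genes at an unadjusted p under 0.05, and DESeq2 called 0 of both. Leaving out 1 library moved all 5 values to either side of 0.

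Counted over the 9 same-tag pairs of the pools, Col1a1 and Col3a1 were lower with halofuginone in 9, Col1a2 and Col5a1 in 8, Col5a3 and Col11a1 in 7 and Col5a2 in 6. Of the 11463 genes tested in all 3 pools, 5 members included, 4.66% were lower in all 9 pairs. These pairs are 3 tags in each of 3 pools. Ribosome-free and heavy pools of the same tag deviated together, so the 9 pairs are not independent. Total RNA was left out of this count because its tags were not shown to pair libraries. The difference between the heavy and total RNA effects was tested in one model. It called 0 of 7 members and 0.0% of 13459 genes in edgeR, with 0 members and 128 genes at an unadjusted p under 0.05 and 1 gene, no member, called by DESeq2. Estimates lay between -0.71 ± 1.28 (SE, Col5a2) and 0.28 ± 0.95 (Col5a3), with SEs between 0.71 and 1.33. The difference between heavy and ribosome-free effects gave 0 of 7 members and 0.0% of 13053 genes, with 0 members and 53 genes at an unadjusted p under 0.05 and 0 genes in DESeq2. All 7 estimates of that difference were below 0, from -1.961 ± 1.34 (SE, Col11a1) to -0.15 ± 1.48 (Col5a2). With the header tag as a replicate block, edgeR called 0 members and 0 genes for that difference. At an unadjusted p under 0.05 were 5 members and 763 of the 13053 genes. The block gave -1.20 ± 0.31 (SE) for Col1a1 and -0.07 ± 0.24 for Col5a2.

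Where an mRNA lies on the gradient was then compared within each treatment. In vehicle cells every member had more CPM in the heavy than in the ribosome-free pool under all 3 tags. CPM were scaled within each pool, so a ratio of 1 does not mark the typical gene. With library totals alone, the median log2 difference over all genes was 0.80 in vehicle and 0.73 with halofuginone. The share of all genes with a ratio above 1 was not computed. The ratio of heavy to ribosome-free CPM, in the order set A, tag 2, tag 4, was 7.34, 3.801 and 4.39 for Col1a1, 7.36, 2.76 and 3.55 for Col1a2 and 7.44, 2.79 and 5.88 for Col3a1. It was 7.04, 3.51 and 3.49 for Col5a1 and 5.33, 2.24 and 2.09 for Col5a2. Set A gave the highest ratio for each of these genes.

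**Figure D3:**
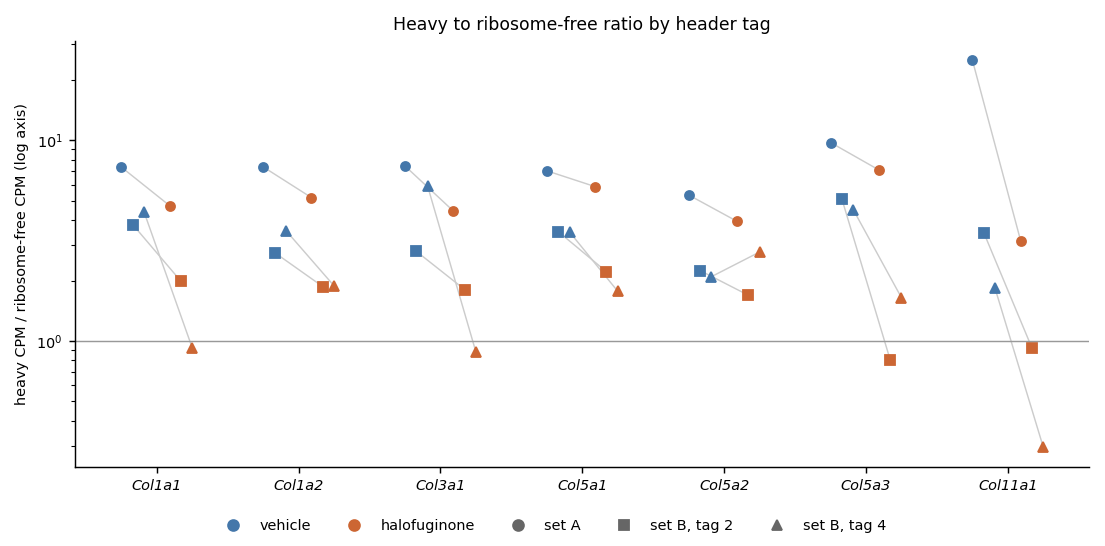
Ratio of heavy CPM to ribosome-free CPM (log axis) for each member; grey lines join vehicle and halofuginone libraries of the same header tag. Most lines fall from left to right, such as Col1a1 under tag 4 from 4.39 to 0.922, and the tag 4 line of Col5a2 rises from 2.09 to 2.77. Each pool was scaled on its own, so a ratio of 1 does not mark the typical gene.

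With halofuginone these ratios were lower under all 3 tags for 6 of the 7 members, and under 2 of 3 for Col5a2. The share of all genes lower under all 3 tags was not computed. In the fit of heavy minus ribosome-free effects, the median log2 value was -1.245 over the members and 0.084 over all genes. Col1a1 stood at 4.72, 1.98 and 0.922, Col3a1 at 4.44, 1.80 and 0.879, and Col1a2 at 5.18, 1.87 and 1.88. Col5a2 stood at 3.95, 1.69 and 2.77. Under tag 4 Col1a1 and Col3a1 thus had slightly less CPM in the heavy than in the ribosome-free pool, each pool being scaled on its own.

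In vehicle the fitted log2 difference between heavy and ribosome-free pools was 1.60 ± 0.73 (SE) for Col1a1, 1.36 ± 0.61 for Col1a2, 1.81 ± 0.96 for Col3a1, 1.42 ± 0.55 for Col5a1, 1.17 ± 0.90 for Col5a2, 1.70 ± 0.71 for Col5a3 and 1.01 ± 0.94 for Col11a1. None passed edgeR's test (0 of 7), although 29.6% of 12225 genes did, in either direction. At an unadjusted p under 0.05 were 2 members and 5212 genes. With the header tag as a replicate block 4 of 7 were called higher in the heavy pool, against 16.8% of genes. These were Col1a1 (log2 1.505 ± 0.41 SE, edgeR adjusted p 0.0235), Col3a1 (1.52 ± 0.38, 0.0183), Col5a1 (1.34 ± 0.34, 0.0193) and Col5a3 (1.79 ± 0.47, 0.0208). DESeq2 called 1 member, Col5a1, with 15.6% of genes called higher. Scaling by library totals alone moved the median of all genes from -0.02 to 0.80, and 4 of 7 members and 36.8% of genes were called higher. Without an expression filter 6 members and 10.1% of 22662 genes were called higher. Without the tag 4 ribosome-free library Col5a3 and Col11a1 were called, with 7.54% of genes called higher, and without the tag 2 heavy library Col5a1 was, with 7.55%. With halofuginone edgeR called 0 of 7 members and 21.1% of 12238 genes, with 0 members and 4474 genes at an unadjusted p under 0.05. DESeq2 called 0 members and 3415 genes. The edgeR estimates with halofuginone ran from -0.97 ± 0.79 (SE, Col11a1) to 1.05 ± 0.89 (Col5a2).

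Ratios of 2 chains within a library do not depend on how libraries are scaled, and compare chains that share a trimer or a fibril. The count ratio of Col1a1 to Col1a2 was lower with halofuginone in 9 of 9 same-tag pairs of the pools and without overlap in total RNA. In total RNA it stood at 0.341, 0.311 and 0.323 in vehicle and at 0.249, 0.262 and 0.267 with halofuginone, or 0.325 ± 0.0149 against 0.259 ± 0.00931 (SD, n = 3 each). Set A and set B gave like values. The 9 pairs of the pools are 3 tags in each of 3 pools and are not independent. The share of other gene pairs lower in all 9 was not computed. In heavy polysomes the ratio stood at 0.565, 0.417 and 0.630 in vehicle and at 0.427, 0.201 and 0.241 with halofuginone, and in light polysomes at 0.899, 0.504 and 0.787 against 0.676, 0.273 and 0.367. In the ribosome-free pool it averaged 0.459 ± 0.139 in vehicle and 0.383 ± 0.168 with halofuginone (SD, n = 3 each). An exact two-sided permutation test gave p = 0.1 in total RNA, the smallest that 3 libraries against 3 allow, and 0.457 after Benjamini-Hochberg adjustment over 16 ratio tests. The exact p was 0.2 in light and in heavy polysomes and 0.5 in the ribosome-free pool.

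**Figure D4:**
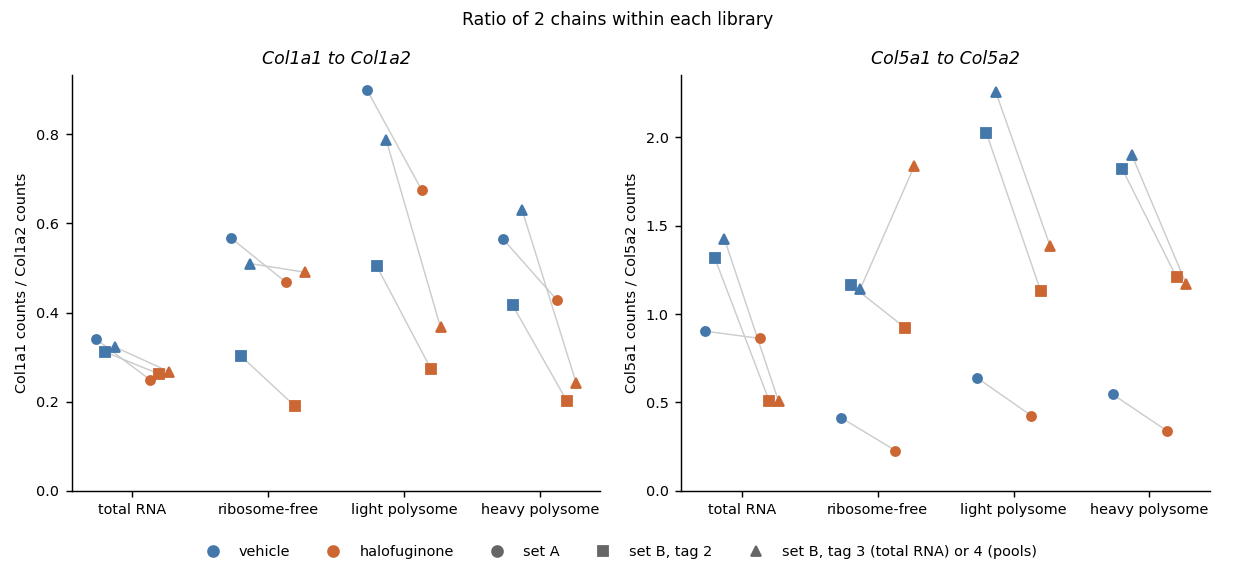
Count ratio of Col1a1 to Col1a2 (left) and of Col5a1 to Col5a2 (right) in each library by kind of RNA; grey lines join libraries of the same header tag. Every Col1a1 to Col1a2 line falls from vehicle to halofuginone; of the Col5a1 to Col5a2 lines, the tag 4 line in the ribosome-free pool rises from 1.14 to 1.84.

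The count ratio of Col5a1 to Col5a2, the chains of the usual type V trimer, was lower with halofuginone in 8 of 9 same-tag pairs of the pools. In total RNA it stood at 0.903, 1.32 and 1.43 in vehicle and at 0.863, 0.510 and 0.506 with halofuginone, without overlap (exact two-sided permutation p = 0.1, adjusted 0.457). Most of that difference came from set B, since the set A pair differed only from 0.903 to 0.863. In heavy polysomes the ratio stood at 0.545, 1.82 and 1.90 in vehicle and at 0.339, 1.21 and 1.17 with halofuginone. Set A and set B lay further apart there than vehicle and halofuginone did.

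Type V and type I chains were also compared. The count ratio of Col5a1 to Col1a1 was higher with halofuginone in 8 of 9 pairs of the pools, and in total RNA averaged 0.231 ± 0.0306 in vehicle and 0.385 ± 0.124 with halofuginone (SD, n = 3 each; exact permutation p = 0.3). The ratio of Col3a1 to Col1a1 was lower in 3 of 9 pairs of the pools. In total RNA the sets went opposite ways. That ratio went from 0.0302 in vehicle to 0.0440 with halofuginone in set A. In set B it stood at 0.0662 and 0.0609 in vehicle and at 0.0183 and 0.0194 with halofuginone. The treatments overlapped over both sets (exact permutation p = 0.2).

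The family's summed share of counts was lower with halofuginone in total RNA. It stood at 0.685%, 0.569% and 0.700% in vehicle and at 0.494%, 0.284% and 0.290% with halofuginone, without overlap (exact two-sided permutation p = 0.1, adjusted 0.4 over 4 kinds of RNA). In heavy polysomes it averaged 0.507% ± 0.294 against 0.240% ± 0.140, in light 0.219% ± 0.103 against 0.129% ± 0.0601 and in the ribosome-free pool 0.110% ± 0.0655 against 0.102% ± 0.0724 (SD, n = 3 each). The groups overlapped in all 3 pools. These shares follow mainly Col1a1 and Col1a2.

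Other genes of collagen biosynthesis, turnover and regulation were read from 10 lists. Over all libraries edgeR called 0 of 84 listed genes tested in total RNA, with 24 at an unadjusted p under 0.05 against 17.6% of all genes, and 0 of 84 in heavy polysomes, with 16 against 6.17%. DESeq2 called 14 in total RNA, against 3.96% of all genes, and 3 in heavy polysomes, against 0.638%, namely Dpt, Lox and Pcolce, which were named after their values were seen. The counts that follow are those of set B total RNA, where 73 of 85 listed genes and 70.0% of all genes were called. Each list's counts are to be read against the 36.9% of all genes that fell and the 33.1% that rose in that fit. Of 12 tested collagen hydroxylases and lysine glycosyltransferases, which modify the chains in the endoplasmic reticulum, 10 fell and 1 rose. P4ha3, a prolyl hydroxylase subunit, measured 21.3 CPM in vehicle cells against 19.5 CPM with halofuginone in set A, and 28.5 and 29.9 CPM against 2.27 and 2.93 CPM in set B. P4hb, the shared subunit of prolyl hydroxylases, stood at 1304 against 960 CPM in set A and at 1179 and 1183 against 797 and 771 CPM in set B. Plod1, a lysyl hydroxylase, had a log2 fold change of -1.56 ± 0.08 (SE) there and Crtap, which acts with a prolyl hydroxylase, -0.20 ± 0.07. Of 9 genes listed as procollagen chaperones and export factors 6 fell, Tango2 included, and 1, Hspa5, rose. Hspa5, an abundant chaperone of the endoplasmic reticulum, went from 940 to 549 CPM in set A and from 737 and 768 to 3401 and 3259 CPM in set B. Serpinh1, the collagen-specific chaperone, had a log2 fold change of -0.71 ± 0.07 (SE) in set B. Tango2 was at -1.38 ± 0.11, and these data do not show that it acts in procollagen export.

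Of 4 tested procollagen proteases and enhancers 3 fell and 1 rose in set B, where 36.9% of all genes fell. Adamts2, which trims the amino end of procollagens I and III, went from 104 to 56.5 CPM in set A and from 63.6 and 72.8 to 11.9 and 11.02 CPM in set B. Pcolce, an enhancer of the protease that trims the carboxyl end, was at 939 against 882 CPM in set A and at 703 and 778 against 163 and 152 CPM in set B. Of 4 tested lysyl oxidases 3 fell, among them Lox, from 1882 to 927 CPM in set A and from 1353 and 1086 to 96.0 and 99.6 CPM in set B. Loxl1 was at -1.22 ± 0.07 and Loxl3 at -2.06 ± 0.08 (log2, SE) in set B, while in set A Loxl1 went from 300 to 311 CPM. Of 11 fibril-binding proteoglycans and associated proteins 8 fell and 1 rose, with Sparc, a collagen-binding matricellular protein, at a log2 fold change of -2.35 ± 0.07 (SE) and Prelp, a small leucine-rich proteoglycan, at -4.91 ± 0.15. Fn1, which encodes fibronectin, was the one that rose, by 0.28 ± 0.09, and in set A it went from 8184 to 7918 CPM. Bgn, the proteoglycan biglycan, was not called in set B, at -0.16 ± 0.07.

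Of 10 genes of collagen breakdown and uptake 6 fell and 3 rose in set B, against 36.9% and 33.1% of all genes, with Timp3, an inhibitor of matrix proteases, higher by 1.68 ± 0.07 (log2, SE). Mmp2, a gelatinase, was at -1.53 ± 0.07, and Timp2 was not called, at 0.16 ± 0.07. In set A Timp3 went the other way, from 308 to 249 CPM. Of 6 collagen receptors 4 rose and 2 fell. Ddr2, a receptor kinase for fibrillar collagen, rose by 0.96 ± 0.09, Itgb1, the shared integrin subunit, by 0.51 ± 0.08 and Itga1, an integrin subunit of a collagen receptor, fell by 2.95 on the log2 scale in set B. In set A Ddr2 went from 376 to 282 CPM and Itgb1 from 623 to 546 CPM, lower with halofuginone. Of 12 regulators of collagen transcription and mRNA 7 rose and 4 fell, with Smad3, a mediator of TGF-beta signals, higher by 0.97 ± 0.07 and the receptor Tgfbr2 at -0.998 ± 0.07. Sp1, a factor that binds GC boxes, was at 0.32 ± 0.10, and Cebpb was not called, at -0.15 ± 0.09. Sp1 went from 108 to 88.6 CPM in set A. Of 15 genes of proline supply and amino acid stress 10 rose and 1 fell, with Trib3, a pseudokinase induced by amino acid stress, at 3.94 ± 0.09. Chac1, which degrades glutathione, was at 3.03 ± 0.09 and Atf4, the transcription factor of the amino acid response, at 0.74 ± 0.07, while the amino acid transporter Slc38a2 was not called, at -0.02 ± 0.08. Atf4 went from 512 to 474 CPM in set A. Of the fibrillar collagen genes outside the 7, Col27a1 fell and Col11a2 rose in set B. Col11a2 stood at 1.54 against 3.26 CPM in set A and at 1.15 and 1.53 against 8.25 and 9.41 CPM in set B.

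Over the 24 libraries, which share kind of RNA, treatment and set, members differed in which genes their levels followed most closely. The measure was Pearson's r of log2(CPM + 0.5), given as a description, among 9623 genes averaging 5 CPM or more. Col1a2 and Col5a1 were each other's closest gene (r = 0.929). Thsd7a, a thrombospondin-repeat protein, came next for both (0.914 and 0.927), followed by Copg1 (0.909), a coat protein of vesicles, for Col1a2 and Pxdn (0.893), a matrix peroxidase, for Col5a1. Col1a1 was closest to Svep1 (0.905), an extracellular matrix protein, Pcdh1 (0.883), a protocadherin, and Postn (0.876), a matricellular protein of collagen-rich tissue. Col3a1 was closest to Igfbp5 (0.894), which binds insulin-like growth factors, Sparc (0.870) and Adamts2 (0.864). Col5a2 followed basement membrane genes, Col4a1 (0.965) and Col4a2 (0.956), chains of type IV collagen, and Fbln2 (0.924), a fibulin, more closely than Col5a1 (0.792) or its neighbour Col3a1 (0.324). Col5a3 and Col11a1 were below the level for this comparison.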

How the data were processed

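The authors deposited a table of whole-number counts per gene symbol for 24 libraries, and per the labels' protocols these came from TruSeq stranded mRNA kits, which favour polyadenylated RNA. Per the submitters' processing notes, the build was GRCm38.p5 and the tools were STAR 2.5.2b, Trimmomatic 0.36, featureCounts and Subread 1.5.0p3. The strand setting is not given in the sources used here, so genes that overlap others are less certain. No spike-in is mentioned, so values are shares of each library and not amounts per cell. Headers gave each column's treatment and kind of RNA but not which sample of the group it was, and 0 columns belonged to other samples.

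Each kind of RNA was fitted alone from 6 libraries, and each difference of effects from 12, with edgeR 4.0.16 (R 4.3.3) on the deposited counts, using TMM, the default expression filter, the quasi-likelihood test and a Benjamini-Hochberg threshold of 0.05. SEs are the log2 fold change divided by the root of the F statistic. Ratios and shares were tested by exact two-sided permutation. Alternatives were DESeq2 1.42.0, other scalings and filters, the set as a covariate, leaving out mitochondrially encoded genes, set B alone, the header tag as a replicate block and leaving out each library. Same-tag libraries of the 2 treatments deviated together in the ribosome-free (correlation across genes 0.830 to 0.935), light (0.407 to 0.815) and heavy pools (0.358 to 0.781), and across ribosome-free and heavy pools (0.201 to 0.456), but not in total RNA (lowest -0.0032), so the tags were taken to pair the pools only.

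The members, lists and tests were chosen with earlier results of these data known. Named genes were all members, the 2 most counted genes of each list and called genes among the 2 with the smallest p, and the 3 genes most like each member.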

Additional observations from a re-analysis of the deposited data

How the results depend on the processing

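The number of called members in total RNA was 0 in edgeR over all libraries, 2 with DESeq2, 7 in set B alone and 0 to 7 when 1 library was left out, the 7 arising without the set A halofuginone library. In vehicle heavy against ribosome-free pools it was 0, and 1 with DESeq2, 4 with library totals alone, 6 without an expression filter, 4 with the replicate block and 0 to 2 when 1 library was left out. The replicate block changed no other call of members, including 0 in heavy polysomes. It gave the same mean ratio differences, such as -0.325 (log2) for Col1a1 to Col1a2 in total RNA (exact p 0.25, the smallest that 3 pairs allow). Tags were not shown to pair libraries of total RNA, so that p-value rests on a pairing that was only assumed. The other comparisons kept 0 called members under all alternatives run.

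Some differences that were not called turned sign. The cause was not tested. In set B alone, log2 differences turned to 0.177 for Col5a1 to Col5a2 in the ribosome-free pool, -0.135 (light) and -0.0532 (heavy) for Col3a1 to Col1a1, 0.10 for Col5a1 in the ribosome-free pool, -0.0686 for Col5a2 in light polysomes, 0.76 for Col11a1 in heavy minus total RNA, 0.30 for Col5a2 in heavy minus ribosome-free, and -0.62, -0.77 and -0.31 for Col1a1, Col3a1 and Col5a3 in halofuginone heavy against ribosome-free pools. With the set as a covariate they turned to 0.11 for Col11a1 in heavy minus total RNA, 0.072 for Col5a2 in heavy minus ribosome-free and -0.0716 for Col3a1 in halofuginone heavy against ribosome-free pools. With the replicate block Col11a1 in heavy minus total RNA turned to 0.30.

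Leaving out 1 library gave these ranges in log2 ratios of the ribosome-free pool: -0.612 to 0.112 (Col1a1 to Col1a2), -0.837 to 0.670 (Col5a1 to Col5a2), -0.138 to 0.356 (Col3a1 to Col1a1) and -0.0985 to 0.306 (Col5a1 to Col1a1). Col3a1 to Col1a1 ran from -0.427 to 0.414 in light and from -0.456 to 0.414 in heavy polysomes. The ribosome-free family share ran from -0.0484 to 0.0284 percentage points. Treatment effects in the ribosome-free pool ran from -1.09 to 0.25 (Col1a1), -0.56 to 0.39 (Col1a2), -1.10 to 0.56 (Col3a1), -1.01 to 0.25 (Col5a1) and -1.04 to 0.66 (Col5a2). In light polysomes they ran from -1.15 to 1.30 (Col5a2) and -0.996 to 0.0117 (Col5a3), and in heavy from -1.73 to 1.35 (Col5a2). Heavy minus total RNA ran from -1.30 to 0.0128 (Col1a1), -0.32 to 0.44 (Col1a2), -0.89 to 1.16 (Col3a1), -0.68 to 0.12 (Col5a1), -2.18 to 0.92 (Col5a2), -0.14 to 1.14 (Col5a3) and -0.98 to 1.13 (Col11a1). Heavy minus ribosome-free ran from -1.16 to 0.0881 (Col5a1) and -1.62 to 1.46 (Col5a2). Heavy against ribosome-free ran from -0.36 to 1.93 for Col5a2 in vehicle, and with halofuginone from -0.48 to 1.13 (Col1a1), -0.67 to 1.13 (Col3a1) and -0.38 to 2.09 (Col5a2). Low depth limits Col5a3 and Col11a1, which had as few as 4 counts in a ribosome-free library and, for Col11a1, 1 in a light one.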
